A study of Mus musculus with 9 samples.

Results

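The 934 H3K4me3 intervals described here lay at promoters in granulocyte-macrophage progenitors (GMP), overlapped an interval of the eosinophil progenitor (EoP) list, and overlapped none of the mature eosinophil (Eos) list. They were chosen from the authors' 3 interval lists, as GMP intervals annotated as promoter that shared at least 1 base with an EoP interval and no base with an Eos interval, and they are 4.64% of the 20109 GMP promoter intervals. Of the other GMP promoter intervals, 13080 overlapped both other lists, 4364 overlapped neither and 1731 overlapped the Eos list only. The members are annotated to 1000 genes, of 13278 genes with a GMP promoter interval. Presence and absence in the lists chose these intervals, so their H3K4me3 values are given as a description. RNA was not used in the choice and is the measure tested.

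The bone marrow of Balb/c mice that had no treatment was pooled and sorted, so a library mixes animals. GMP were sorted as Lin-, CD34+, c-kithi, CD16/32+ cells, EoP as Lin-, CD34+, c-kitlo, CD125+ cells, where CD125 is the interleukin-5 receptor alpha chain, and Eos as cells with Siglec-F and the eotaxin receptor CCR3. Each cell type gave 2 RNA libraries from separate sorts and 1 H3K4me3 library, and whether the sorts used different animals is not stated, so p-values measure the spread between these libraries. The RNA libraries held 6576661 and 5226653 counts in GMP, 9628492 and 12088134 in EoP, and 10940000 and 10790618 in Eos.

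H3K4me3 is a trimethyl mark on a lysine of histone H3 that is laid down around the starts of genes, mostly active ones, and it is widely used to map promoters. GMP give rise to neutrophils, monocytes and, through EoP, eosinophils. On the way from progenitor to granulocyte the cells stop dividing, shut off stem and progenitor genes, and make granule proteins at a stage before the mature cell, whose granules persist after the messages have gone.

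Some features of the libraries touch the results. The gate genes went with the labels: Ccr3 had 1.57 and 0.894 CPM in GMP, 21.3 and 34.5 in EoP, and 2272 and 2973 in Eos, and Il5ra, for CD125, had 2.18 and 1.79 in GMP, 436 and 399 in EoP, and 619 and 1179 in Eos. The 25 genes of a neutrophil list, the marker genes of a cell type that the gates could also hold, summed to 40071 and 35818 CPM in GMP, 5172 and 5497 in EoP, and 66353 and 66897 in Eos, with counts for all 25 genes. The 11 primary granule genes of GMP summed to 45528 and 42634 CPM in GMP, 6542 and 6540 in EoP, and to 18225 in Eos replicate 1 but 8222 in Eos replicate 2. The Eos H3K4me3 list had shorter intervals, at a median of 190 bases, than the EoP list at 405 and the GMP list at 343, and a lower median fold enrichment of 4.33 against 6.20 in EoP and 6.09 in GMP. RNA of chromosome Y genes was near 0 in GMP and present in EoP and Eos, as given below. Whether these features have a part in the results below was not tested. In bulk RNA, fewer cells of a type and less RNA per cell cannot be told apart.

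The promoters of 6 member genes are shown because they cover the kinds of gene that the results turn on. Nkg7, Ms4a3, Ms4a2 and Ctsg are genes for granule or membrane proteins of myeloid, cytotoxic or mast cells with no Eos promoter interval. Epx and Bcl6 kept an Eos promoter interval beside the one that was absent. The sequences are RefSeq promoters of build GRCm38.p6, 250 bases before to 50 after the annotated start, each 5′ to 3′ on the gene's strand. Capitals mark matches, on either strand, to 4 motifs that were searched. The first is CCAAT, the box of that name. The second is the GATA motif, spelled AGATAA or spelled TGATAA. The third is GGAAGT, a form of the Ets motif, and the last is the E-box CACGTG.
Nkg7: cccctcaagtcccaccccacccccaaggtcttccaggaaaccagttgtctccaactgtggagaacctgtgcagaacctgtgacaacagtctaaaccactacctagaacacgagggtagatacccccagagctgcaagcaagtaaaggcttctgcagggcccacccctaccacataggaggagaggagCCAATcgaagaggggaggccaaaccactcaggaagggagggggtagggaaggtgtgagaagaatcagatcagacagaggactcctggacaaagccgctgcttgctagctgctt
Ms4a3: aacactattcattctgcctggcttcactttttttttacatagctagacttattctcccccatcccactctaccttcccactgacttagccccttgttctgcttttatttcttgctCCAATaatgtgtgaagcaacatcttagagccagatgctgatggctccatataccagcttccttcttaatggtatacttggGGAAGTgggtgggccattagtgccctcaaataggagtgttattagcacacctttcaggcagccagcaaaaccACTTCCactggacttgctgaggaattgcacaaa
Ms4a2: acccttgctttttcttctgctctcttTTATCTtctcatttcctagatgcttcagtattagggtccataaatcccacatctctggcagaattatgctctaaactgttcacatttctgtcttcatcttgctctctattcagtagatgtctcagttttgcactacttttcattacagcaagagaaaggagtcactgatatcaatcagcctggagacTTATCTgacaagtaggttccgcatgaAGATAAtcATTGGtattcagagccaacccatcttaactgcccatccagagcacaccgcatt
Ctsg: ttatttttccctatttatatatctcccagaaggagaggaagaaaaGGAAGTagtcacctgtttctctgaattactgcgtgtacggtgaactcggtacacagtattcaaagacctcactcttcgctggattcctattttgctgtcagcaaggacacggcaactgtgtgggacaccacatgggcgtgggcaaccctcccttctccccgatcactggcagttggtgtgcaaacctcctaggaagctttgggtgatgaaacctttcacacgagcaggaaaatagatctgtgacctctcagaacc
Epx: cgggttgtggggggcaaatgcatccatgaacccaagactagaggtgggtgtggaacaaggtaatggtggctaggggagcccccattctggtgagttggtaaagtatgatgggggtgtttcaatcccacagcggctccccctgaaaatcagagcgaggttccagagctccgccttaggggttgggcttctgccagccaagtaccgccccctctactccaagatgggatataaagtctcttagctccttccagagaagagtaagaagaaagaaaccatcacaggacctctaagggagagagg
Bcl6: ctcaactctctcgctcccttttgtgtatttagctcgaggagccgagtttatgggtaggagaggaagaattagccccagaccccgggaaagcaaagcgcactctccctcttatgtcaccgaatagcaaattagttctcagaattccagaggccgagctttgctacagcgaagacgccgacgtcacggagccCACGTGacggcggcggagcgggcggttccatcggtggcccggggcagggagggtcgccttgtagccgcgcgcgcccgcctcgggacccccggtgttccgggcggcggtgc
The Nkg7 window lies at chr7:43436888-43437187 on the plus strand and runs into the member interval, which starts at 43437004. The Ms4a3 window lies at chr19:11640802-11641101 on the minus strand, 41 bases from its member interval, and the Ms4a2 window at chr19:11623670-11623969 on the minus strand, 38 bases from its member interval. The Ctsg window lies at chr14:56102525-56102824 on the minus strand, 398 bases from its member interval, and the Epx window at chr11:87875487-87875786 on the minus strand, 718 bases from its own. The Bcl6 window lies at chr16:23988803-23989102 on the minus strand and overlaps its member interval. It belongs to a RefSeq start upstream of the one from which positions at Bcl6 are counted below.

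The windows shown held 3 CpG dinucleotides in Nkg7, 0 in Ms4a3, 2 in Ms4a2, 8 in Ctsg, 5 in Epx and 31 in Bcl6, and the median over all 32851 promoters of the table was 7. The ratio of observed to expected CpG was 0.129 in Nkg7, 0.00 in Ms4a3, 0.169 in Ms4a2, 0.464 in Ctsg, 0.236 in Epx and 1.05 in Bcl6, and 35.8% of all promoters had a ratio of at least 0.6. The Ms4a2 window held 3 matches to AGATAA or TGATAA, a form of the site that GATA factors bind, and 18.6% of all promoters held at least 1. CCAAT, at 1 match each in Nkg7, Ms4a3 and Ms4a2, was in 37.4% of all promoters. GGAAGT, with 2 matches in Ms4a3 and 1 in Ctsg, was in 23.8%, and CACGTG, with 1 in Bcl6, in 7.15%. Only 78.9% of the member genes, and 73.2% of those with no Eos promoter interval, had a window within 2000 bases of a member interval, so a check of composition over the whole set is void. The 183 matched genes with no Eos promoter interval had a median of 16 CpG dinucleotides, more than in each of the 4 windows shown for that kind, so these 4 do not stand for the set.

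Most members lay beside an interval that Eos kept. For 680 members (72.8%) at least 1 of their genes had another promoter interval in the Eos list, and 668 of these 680 had an Eos interval within 1000 bases, at a median distance, over all 680, of 147.5 bases. For the remaining 254 members (27.2%) none of their genes had an Eos promoter interval, and the median distance to any Eos interval was 22886.5 bases. Of the 254, 49 had an Eos interval of some annotation within 5000 bases. Among genes, 250 of the 1000 had no Eos promoter interval and 750 had one. By comparison, 1682 of all 13278 genes with a GMP promoter interval (12.7%), members included, had no Eos promoter interval. Members were chosen to share no base with an Eos interval, and the difference in share was not tested. Of the 1000 genes, 675 also had a GMP promoter interval that was present in all 3 lists, and 3 of these were among the 250.

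**Figure D1:**
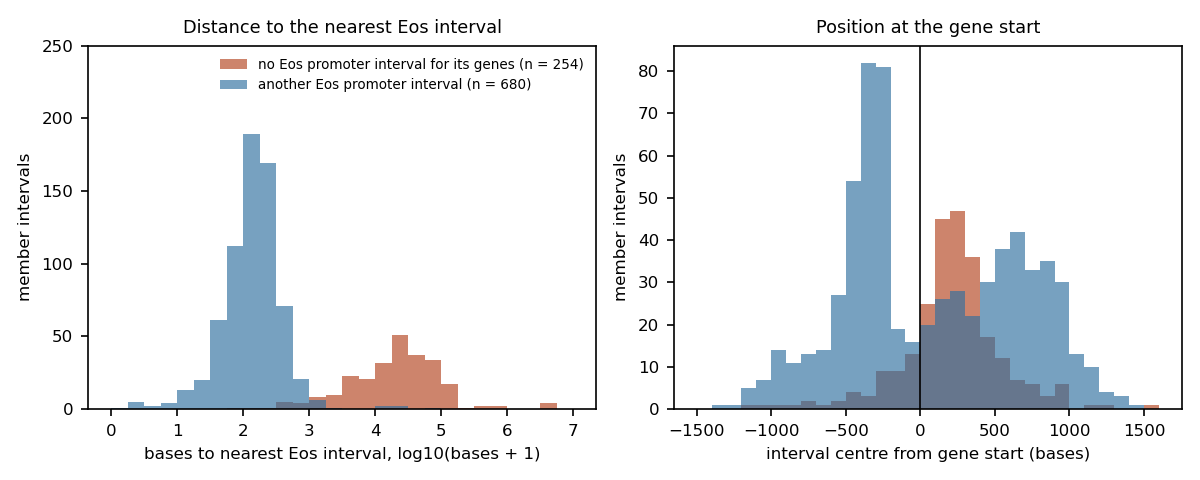
Left, number of member intervals by bases to the nearest Eos interval on a log10 scale, and right, by the position of the interval's centre relative to the gene start, for the 254 members with no Eos promoter interval for their genes and the 680 with another one. The 680 sit close to an Eos interval and on either side of the start, and the 254 sit far from any Eos interval and mostly just downstream of the start.

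The 2 kinds differed in where they lay at the gene. Of the 254 members with no Eos promoter interval, 128 (50.4%) covered the gene start and 47 (18.5%) were centred upstream of it, which is near the share of the intervals in all 3 lists that covered the start, 47.4%. Of the 680 members beside a kept Eos interval, 56 (8.24%) covered the start and 345 (50.7%) were centred upstream of it. Of the GMP promoter intervals that overlapped the Eos list only, 16.7% covered the start and 51.3% were centred upstream. For those that overlapped neither list the shares were 13.8% and 41.8%. Their lengths and enrichments followed the same division. The 254 had a median length of 499.5 bases and a median GMP fold enrichment of 7.09, and the 680 had 255 bases and 4.80. Both were below the intervals in all 3 lists, at 700 bases and 9.27. The GMP promoter intervals that overlapped the Eos list only had medians of 208 bases and 4.74, and those that overlapped neither list 146 bases and 4.36. In EoP, the overlapping interval had a median fold enrichment of 4.63 for the 254 and 4.56 for the 680, against 7.28 for the intervals in all 3 lists. Fold enrichment and −log10 q are the authors' own values.

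**Figure D2:**
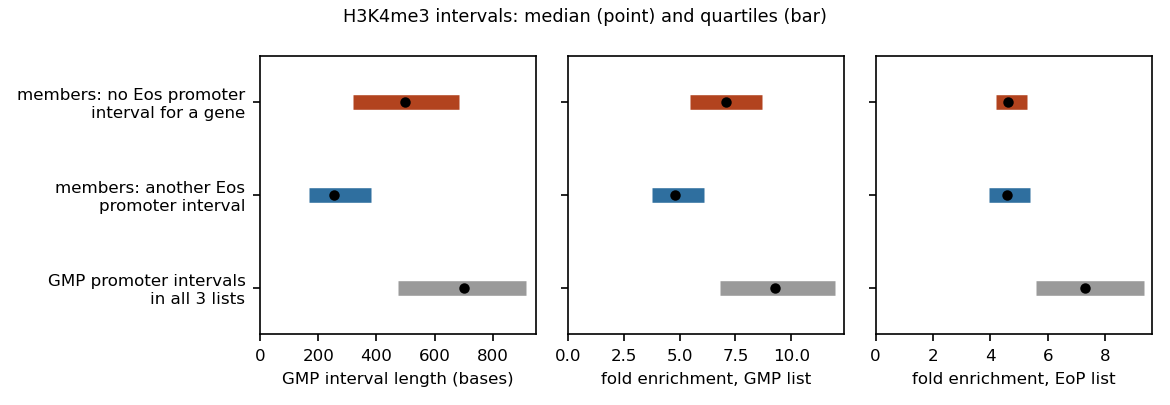
Median (point) and quartiles (bar) of interval length in GMP, fold enrichment in the GMP list and fold enrichment in the EoP list, for the 254 members with no Eos promoter interval, the 680 members with another one, and the 13080 GMP promoter intervals in all 3 lists. Members with no Eos promoter interval were longer and more enriched in GMP than the other members, and both kinds lay below the intervals in all 3 lists in all 3 measures.

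Some members lay at the limits of the choice. At the inside, the Rnf13 interval of 94 bases shared 1 base with its EoP interval and the Ybx2 interval of 89 bases shared 2. The Sema6b interval of 255 bases lay directly beside an Eos interval with 0 bases between them, and those of Kif5c, at 484 bases, and Ugt8a, at 634, had 1 base between. At the outside, the Gbas and Zfp703 intervals shared 1 base with an Eos interval and were left out. With at least 50% of both intervals required as overlap there would be 2048 members, with at least 50% of the shorter there would be 985, and with a −log10 q of at least 10 in both progenitor lists there would be 20.

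Members annotated only to gene models, micro RNAs or small nucleolar RNAs were passed over in the rankings that follow. Among the remaining members, the 8 most enriched in GMP were of both kinds. Fam188b at 14.6-fold, Gspt2 at 14.2-fold, Map9 and Tnfrsf11a at 13.7-fold and Mtss1l at 12.9-fold had no Eos promoter interval. Nicn1 at 14.4-fold, Gpr3 at 14.2-fold and Zfp28 at 13.03-fold had one. The 6 longest of the remaining members were those of Ctsg at 2119 bases, Ms4a3 at 1767, Nkg7 at 1483, Plxdc2 at 1408, Sox4 at 1370 and Slc22a3 at 1267. Only Sox4 among these 6 had an Eos promoter interval. The Ctsg interval ran at chr14:56100009-56102127 (mm10), 447 to 2565 bases downstream of the start, and only short EoP intervals of 145 to 355 bases lay within it. The Nkg7 interval ran at chr7:43437004-43438486 across the start, and 3 short EoP intervals lay within it. The Cdh1 interval, at chr8:106603257-106604436, had the same form, with 3 EoP intervals inside a single GMP one. At these 3 genes the interval was wide in GMP, there were several short ones in EoP and none was listed in Eos.

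The 8 members named for the highest fold enrichment in GMP had at most 13.9 CPM in any library. Gspt2, a translation termination factor, had 13.8 and 13.9 CPM in GMP, 4.25 and 3.43 in EoP, and 0.803 and 0.351 in Eos, and was lower in Eos against EoP by 2.67 ± 0.56 (edgeR adjusted p = 0.0051). Tnfrsf11a, which encodes the receptor RANK, had 4.48 and 5.81 CPM in GMP, 0 and 0.0857 in EoP, and 1.71 and 0.468 in Eos. It had 1 count in the 2 EoP libraries against 76 in GMP, a ratio of 0.00978 with a 95% counting interval of 2.4e-04 to 0.0562. Fam188b had 56 counts in GMP and 0 in Eos, and was at least 23.1-fold lower in Eos against a floor of 3 counts over both Eos libraries. Gpr3 was not tested, at no more than 0.847 CPM in any library.

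With gene models passed over in the same way, the members whose EoP interval was most enriched were of the other kind. Tep1 at 13.5-fold in EoP, Inpp4a at 13.4-fold, Zfp61 at 12.2-fold, Impdh2 at 11.9-fold, Nol10 at 11.8-fold and Zfp81 at 11.4-fold all had another Eos promoter interval, 3 to 156 bases from the member. Their GMP fold enrichments were 3.71 to 6.74. Inpp4a, an inositol phosphatase, had 107 and 142 CPM in Eos, against 21.9 and 24.9 in EoP, and Tep1, a component of the telomerase and vault particles, had 57.3 and 73.9 in Eos, against 26.5 and 32.0 in EoP. Both rose in Eos against EoP, by 2.41 ± 0.24 (adjusted p = 1.2e-04) and 1.16 ± 0.23 (adjusted p = 0.0043), and the Tep1 call was lost without EoP replicate 1 and with limma on RPKM.

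The members beside a kept interval had another form. Bcl6 had a member interval 381 to 582 bases upstream of its start in GMP, with an EoP interval over it, while the intervals downstream of the start, at 7.05-fold in GMP and 6.52-fold in Eos, were kept. At Prg2 the member interval lay 815 to 1430 bases downstream of the start, and an Eos interval ended 809 bases downstream. At Epx an interval of 89 bases made the gene a member, and an Eos promoter interval began 932 bases downstream of the start. Ikzf2 stands between the 2 kinds: neither of its member intervals had an Eos partner, and no Eos interval was annotated to its promoter, but Eos intervals lay 1631 to 2072 bases upstream, where GMP and EoP had intervals too. Plac8 likewise had Eos intervals in its first 3000 bases that were annotated as intron, and the Eos intervals at Ccnd2 were annotated to the overlapping gene 9330179D12Rik alone. In all, 20 of the 250 genes had an Eos interval of some annotation within 1000 bases of a member interval.

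**Figure D3:**
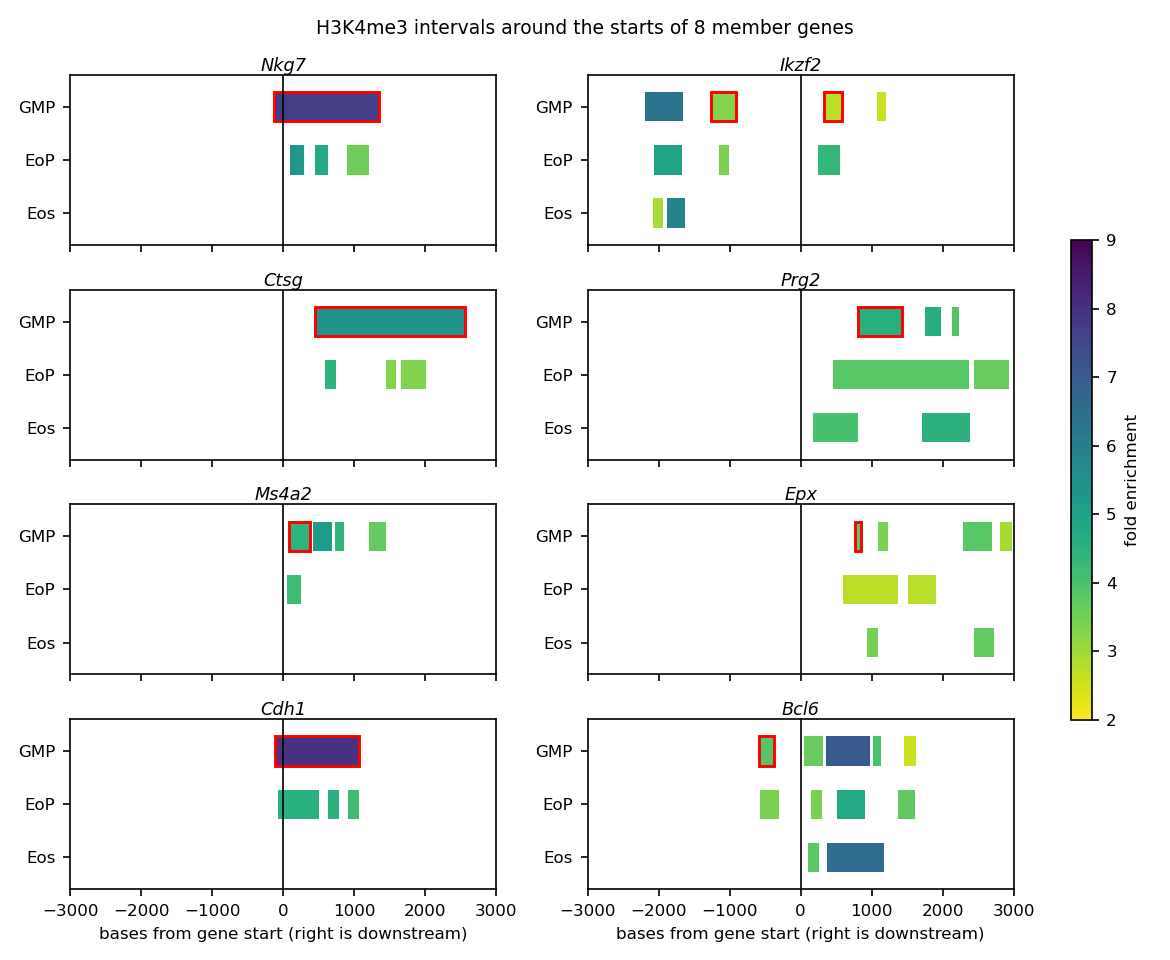
H3K4me3 intervals of the GMP, EoP and Eos lists within 3000 bases of the start of 8 member genes, drawn to scale along the gene's direction and coloured by the authors' fold enrichment. Red outlines mark member intervals. Nkg7, Ctsg, Ms4a2 and Cdh1 have no Eos interval in the window, and Prg2, Epx and Bcl6 have Eos intervals beside the member.

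All 1000 member genes were in the RNA tables and 866 passed the filter on low counts, 177 of the 250 with no Eos promoter interval and 689 of the 750 with one. Genes with no Eos promoter interval were less expressed than the other member genes. Their mean was under 1 CPM for 80 of 250 in GMP (32.0%), 143 in EoP (57.2%) and 149 in Eos (59.6%). Of the 750 the numbers were 67 (8.93%), 107 (14.3%) and 129 (17.2%). Over all 23471 genes they were 9187 (39.1%), 12078 (51.5%) and 11787 (50.2%). The share of the 250 was thus below that of all genes in GMP and above it in EoP and Eos. The median of the 250 was 1.88 and 1.94 CPM in the GMP libraries, 0.472 and 0.60 in EoP, and 0.603 and 0.468 in Eos, and the median of the 750 was 18.3 and 19.0 in GMP, 21.2 and 20.5 in EoP, and 19.4 and 15.2 in Eos. Over all genes it was 2.18 and 2.09 in GMP, 0.708 and 0.771 in EoP, and 1.00 and 0.819 in Eos. The median of the 250 thus lay below that of all genes in every library and was lower in EoP and Eos than in GMP, as was that of all genes, while the medians of the 750 lay within 15.2 to 21.2 CPM in every library.

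The 2 kinds of member gene also differed in their counts of calls. In EoP against GMP, 69 of the 250 genes with no Eos promoter interval were lower and 12 higher, at 27.6% and 4.80%. In the same comparison 57 of the 750 others were lower and 57 higher, at 7.6% each. Of all genes tested, 17.1% were lower and 9.49% higher in that comparison, and among all genes, tested or not, the shares were 10.5% and 5.79%. Among the 1399 GMP promoter genes with no promoter interval in EoP or Eos, 25.1% were lower and 1.22% higher, tested or not. Of the tested genes of each set, 39.0% of the 250, 8.27% of the 750 and 49.9% of the 1399 were lower. In Eos against EoP, the step at which these promoter intervals left the lists, 25 of the 250 were lower and 22 higher, at 10% and 8.80%. In that comparison 166 of the 750 others were lower and 130 higher, at 22.1% and 17.3%, beside 10.8% and 11.6% of all genes. Of the genes tested, 14.1% of the members with no Eos promoter interval were lower and 12.4% higher, beside 17.7% and 19.1% of all genes tested. In Eos against GMP, 83 of the 250 were lower and 12 higher, at 33.2% and 4.80%, and 218 of the 750 were lower and 164 higher, at 29.1% and 21.9%, beside 19.4% and 13.9% of all genes. Of the genes tested, 46.9% of the members with no Eos promoter interval were lower and 6.78% higher. The shares were 31.6% and 23.8% of the tested genes of the 750, near the 31.8% and 22.7% of all genes tested. A larger part of the 750 than of all genes had passed the filter, at 91.9% against 61.0%. The difference between the 250 and the 750 was not tested.

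**Figure D4:**
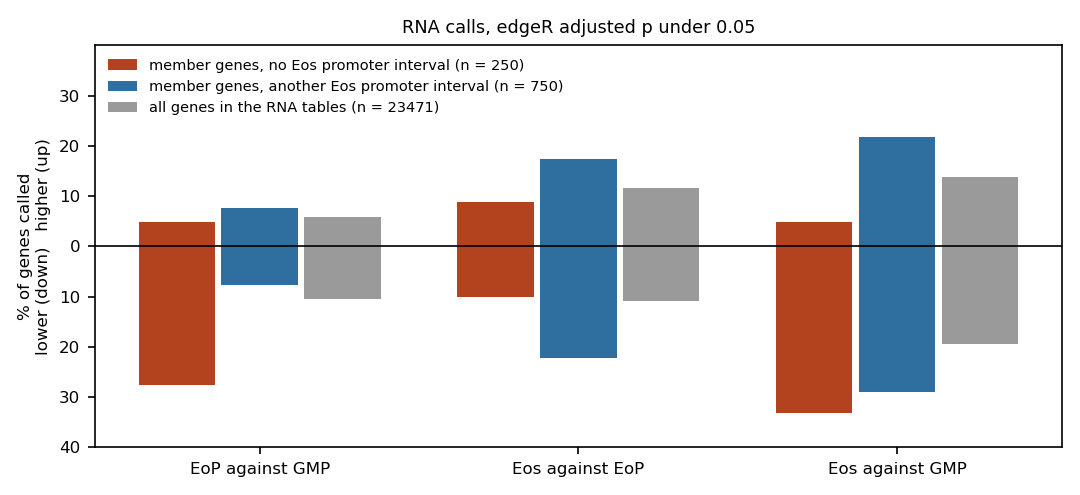
Share of genes called higher (up) or lower (down) in RNA by edgeR at an adjusted p under 0.05 in each pair of cell types, for the 250 member genes with no Eos promoter interval, the 750 with another Eos promoter interval and all 23471 genes, with untested genes counted as not called. Genes with no Eos promoter interval were called lower more often than higher in EoP against GMP, with 27.6% lower and 4.80% higher. In Eos against EoP they were called lower about as often as higher, with 10% and 8.80%.

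Calls in both steps were set side by side for the 69 genes that fell in EoP against GMP. In Eos against EoP, 14 of the 69 rose, 3 fell and 52 were not called. The 57 of the 750 that fell in EoP against GMP had similar numbers, with 12 that rose, 2 that fell and 43 not called. Of the 12 genes that were higher in EoP against GMP, 5 fell in Eos. The 12 include Kdm5d, Eif2s3y, Uty and Ddx3y on chromosome Y, which had 0 or 1 counts in the GMP libraries. Without the members on chromosomes X and Y, 8 were higher. Because both steps use the EoP libraries, these numbers are a description of the 2 sets of calls side by side. They have no share over all genes beside them, so whether the members differ from other genes in this was not tested. The median log2 fold change over the 177 genes that passed the filter was −1.49 in EoP against GMP and 0.00 in Eos against EoP. It was −2.74 and 1.03 over the 703 tested GMP promoter genes with no promoter interval in EoP or Eos. Over all genes tested it was −0.07 and 0.02. These medians cover only genes that passed the filter, which a gene could do on its GMP counts alone. Such a gene, if near 0 at both later stages, would give a fall and then little change. Means under 1 CPM were found for 80 of the 250 at the GMP stage, against 143 for EoP and 149 for Eos. How far the filter set the −1.49 and the 0.00 was not tested. With at least 50 counts in 2 libraries required, 27 of the 250 were lower in EoP against GMP. The numbers called in EoP against GMP depended on the libraries: 17 of the 250 were lower without GMP replicate 1, 19 without GMP replicate 2, 25 without EoP replicate 1 and 32 without EoP replicate 2, and lower calls outnumbered higher calls each time. With RPKM values in place of TMM-scaled counts, 19 of the 250 were lower and 12 higher in EoP against GMP, and 32 lower and 6 higher in Eos against EoP. On that scale 36 of all 1000 member genes were lower and 124 higher in EoP against GMP, against 126 and 69 by counts, and 283 were lower and 86 higher in Eos against EoP, against 191 and 152. That scale shifted the median log2 fold change over 9838 genes, members or not, by 0.27 in EoP against GMP and −0.47 in Eos against EoP. The counts from these alternatives have no share over all genes beside them.

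Primary granule genes were among the members with the longest intervals in GMP. Of the 11 genes of that list, all with a GMP promoter interval, 4 were members and 3 of the 4, Ctsg, Ms4a3 and Nkg7, had no Eos promoter interval. Ctsg, which encodes the serine protease cathepsin G, had 2644 and 2408 CPM in GMP, 183 and 319 in EoP, and 1024 and 315 in Eos. It was high in both GMP libraries and uneven in Eos. The log2 fold change was −3.33 ± 0.52 (SE) in EoP against GMP (edgeR adjusted p = 0.0027), and 1.41 ± 0.49 in Eos against EoP (adjusted p = 0.045), a call that was lost in 5 of the 6 fits that left out 1 library, all but the one without Eos replicate 2, and with limma on RPKM. Ms4a3, a four-span membrane protein known as a mark of GMP, had 554 and 498 CPM in GMP, 131 and 112 in EoP, and 309 and 94.2 in Eos. It fell by 2.11 ± 0.45 in EoP against GMP (adjusted p = 0.0096) and did not pass in Eos against EoP (log2 fold change 0.73, adjusted p = 0.21), and the first call did not hold when either GMP library or EoP replicate 2 was left out, or with limma on RPKM. Nkg7, a granule membrane protein of cytotoxic cells, had 736 and 570 CPM in GMP, 341 and 335 in EoP, and 398 and 114 in Eos, and passed only in Eos against GMP, where it fell by 1.35 ± 0.46 (adjusted p = 0.031), a call lost in 3 of the 6 such fits. For all 3 the higher of the 2 Eos values was in replicate 1, the library with the larger sum of the whole primary granule list. Ap3s1, an adaptor subunit with a kept Eos promoter interval, was lower in Eos than in EoP, by 1.14 ± 0.26 (adjusted p = 0.0071). Over the whole list, 6 of the 11 genes were lower and 1 higher in EoP against GMP, and 2 were lower and 5 higher in Eos against EoP.

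Prss57, a serine protease of the same granules that the list does not hold, did not follow the pattern. Its 2 member intervals lay 59 to 1139 bases downstream of the start and it had no Eos promoter interval. It had 358 and 285 CPM in GMP, 504 and 413 in EoP, and 193 and 70.0 in Eos. All EoP values lay above all Eos values, and it fell by 1.80 ± 0.40 in Eos against EoP (adjusted p = 0.0070).

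Stem and progenitor genes gave 7 members of 40 with a GMP promoter interval, and 6 of the 7 were lower in Eos against GMP. Cd93, a C-type lectin receptor of early progenitors, had no Eos promoter interval and had 710 and 626 CPM in GMP, 46.1 and 91.5 in EoP, and 124 and 51.1 in Eos. It fell by 3.28 ± 0.45 in EoP against GMP (adjusted p = 0.0013) and by 2.93 ± 0.44 in Eos against GMP (adjusted p = 6.3e-04), and the Eos and EoP libraries overlapped. Plac8, a small cysteine-rich protein of myeloid cells, fell late: it had 417 and 462 CPM in GMP, 306 and 257 in EoP, and 152 and 52.4 in Eos, at −1.46 ± 0.41 in Eos against EoP (adjusted p = 0.019), a call lost without EoP replicate 1. Myb, a transcription factor needed by dividing progenitors, had 1046 and 1023 CPM in GMP, 1006 and 1027 in EoP, and 480 and 172 in Eos. The GMP and EoP libraries of Myb were alike and both Eos libraries lower, at −1.64 ± 0.41 (adjusted p = 0.011). The Myb member was an interval of 274 bases upstream of a start whose own intervals Eos kept, and Cdk6 was of the same kind, with 533 and 593 CPM in GMP, 284 and 371 in EoP, and 244 and 105 in Eos. Sox4 and Mecom, transcription factors of stem cells and leukaemia, were both lower in Eos against GMP, at −3.32 ± 0.58 and −3.17 ± 0.73, and their highest library held 14.9 and 5.08 CPM. The Mecom call was lost without GMP replicate 1. Nrgn did not pass in any comparison and stayed under 2 CPM.

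Over the whole stem and progenitor list, members or not, 27 of the 47 tested genes were lower and 4 higher in Eos against GMP, 12 were lower and 8 higher in Eos against EoP, and 16 were lower and 3 higher in EoP against GMP.

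Some genes with no Eos promoter interval were at their highest in EoP and fell in Eos. Ms4a2 encodes the beta chain of the high-affinity IgE receptor and had 85.4 and 74.8 CPM in GMP, 119 and 321 in EoP, and 19.0 and 3.51 in Eos. Every Eos value lay below every progenitor value, and the log2 fold change in Eos against EoP was −4.28 ± 0.69 (adjusted p = 0.0014). Cdh1, which encodes E-cadherin, had 34.6 and 39.6 CPM in GMP, 65.9 and 118 in EoP, and 3.72 and 2.69 in Eos, at −4.83 ± 0.36 in Eos against EoP (adjusted p = 2.5e-05). Kcne3, a potassium channel subunit, had 5.33 and 6.55 CPM in GMP, 17.8 and 22.9 in EoP, and 0.904 and 0.468 in Eos, at −4.84 ± 0.49 in Eos against EoP (adjusted p = 1.2e-04). Rcn3, a calcium-binding protein of the endoplasmic reticulum, had 1.09 and 2.38 CPM in GMP, 24.6 and 17.8 in EoP, and 1.91 and 0.819 in Eos, at −3.93 ± 0.55 in Eos against EoP (adjusted p = 7.0e-04). In all 4 genes both EoP libraries were above both GMP libraries, and both Eos libraries were below both EoP libraries. The rise in EoP against GMP was not called for Ms4a2 (edgeR adjusted p = 0.10). It was called for Rcn3 (adjusted p = 0.0022) and for Cdh1 and Kcne3 (adjusted p = 0.012 each). The Cdh1 and Kcne3 calls were each lost in 3 of the 6 fits without 1 library. Slc22a3, a transporter of organic cations, and Nme4, a mitochondrial nucleoside diphosphate kinase, also had no Eos promoter interval and fell in Eos against EoP, by 2.47 ± 0.55 (adjusted p = 0.0067) and 2.09 ± 0.58 (adjusted p = 0.018, lost without EoP replicate 2). Of the 19 mast cell and basophil genes tested, 11 were lower and 4 higher in Eos against EoP. Of the 22 in the list, the 2 members were Ms4a2 and Srgn, and Srgn, the granule proteoglycan serglycin with a kept Eos promoter interval, had 1480 and 1579 CPM in Eos, against 1063 and 776 in EoP, and did not pass (adjusted p = 0.056). The summed level of the mast cell and basophil list was 3309 and 4002 CPM in Eos and 3915 and 6594 in EoP.

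Called falls in Eos against EoP were ranked among member genes with a mean of at least 20 CPM in EoP and no overlap of libraries. Gene models, micro RNAs and small nucleolar RNAs were passed over. The 4 largest of these falls were at genes that kept an Eos promoter interval, Epx, Slc30a2, Prg2 and Lipg. Epx, for eosinophil peroxidase, had 141 and 45.1 CPM in GMP, 26969 and 23218 in EoP, and 436 and 214 in Eos, at −6.27 ± 0.69 in Eos against EoP (adjusted p = 1.9e-04). Prg2, for major basic protein, was at −5.34 ± 0.83 in the same comparison (adjusted p = 0.0012). The kept Eos promoter interval had a fold enrichment of 3.47-fold for Epx and 4.05-fold for Prg2. Slc30a2, a zinc transporter, had 2.66 and 1.64 CPM in GMP, 35.3 and 26.2 in EoP, and 0.603 and 0.819 in Eos, and Lipg, endothelial lipase, had 0.484 and 1.04 in GMP, 172 and 70.0 in EoP, and 4.32 and 1.99 in Eos. They fell by 5.42 ± 0.47 and 5.24 ± 0.52 in Eos against EoP (adjusted p = 5.1e-05 and 1.1e-04). The eosinophil granule list had 13 genes, of which 5 had a GMP promoter interval and these 2, Prg2 and Epx, were members. Of the 11 tested, 10 were lower in Eos against EoP and 0 higher.

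Some genes of growth and division were members, and all but Ccnd2 had another Eos promoter interval. Of genes with a GMP promoter interval, members were 3 of 45 in DNA replication and 4 of 35 in ribosome biogenesis. They were 2 of 32 in nucleotide and amino acid synthesis and 4 of 46 in the cell cycle. Over all genes with a GMP promoter interval the share was 7.53%, and the difference was not tested. All 3 DNA replication members, all 4 ribosome biogenesis members and both members of nucleotide and amino acid synthesis were lower in Eos against EoP, and each kept an Eos promoter interval. Of these 9 member intervals 7 were centred 260 to 509 bases upstream of the start, that of Mcm6 was centred 907 bases downstream, and that of Impdh2 covered the start. Mcm6, a subunit of the replicative helicase, had 282 and 297 CPM in GMP, 240 and 291 in EoP, and 106 and 32.4 in Eos, at −1.94 ± 0.44 (adjusted p = 0.0073). Utp20, a factor for processing of the small ribosomal subunit, had 100.3 and 103 CPM in GMP, 60.6 and 72.8 in EoP, and 28.1 and 12.2 in Eos, at −1.72 ± 0.34 (adjusted p = 0.0041). For both genes each Eos library lay below all 4 progenitor libraries. Lig1, Rrm2, Rrs1, Nhp2, Aldh18a1 and Impdh2 fell by 1.33 to 1.80 and Heatr1 by 0.77, and the Heatr1 call was lost in 5 of the 6 fits without 1 library. The Rrs1 call was lost without either EoP library, and the Impdh2 call without EoP replicate 1 or Eos replicate 2. The members did as the lists did: 44 of 45 DNA replication genes, 29 of 35 ribosome biogenesis genes and 25 of 32 synthesis genes were lower in Eos against EoP, and 0, 1 and 0 were higher. Among cell cycle members, Nusap1 and Cdc25a were lower in Eos against EoP, and the Cdc25a call was lost without EoP replicate 2. Ccnd2, for the G1 cyclin D2, fell earlier, with 135 and 135 CPM in GMP, 31.3 and 53.4 in EoP, and 41.5 and 20.1 in Eos, at −1.67 ± 0.36 in EoP against GMP (adjusted p = 0.0099), a call lost in 3 of the 6 fits without 1 library.

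The receptor members included several that were lower in EoP than in GMP. Of 38 cytokine and growth factor receptor genes with a GMP promoter interval 6 were members, and 3 of the 6 were lower in EoP against GMP, as were 17 of the 44 receptor genes tested, with 4 higher. Met, the hepatocyte growth factor receptor, had 95.0 and 55.9 CPM in GMP, 2.83 and 7.89 in EoP, and 4.82 and 1.75 in Eos, at −3.78 ± 0.53 in EoP against GMP (adjusted p = 0.0015). Both GMP libraries lay far above the other 4, and in Eos against EoP Met did not pass (adjusted p = 0.33). Kdr, a receptor for vascular endothelial growth factor, was at 2.90 and 2.23 CPM in GMP and under 1 CPM in EoP and Eos, and its call in EoP against GMP was lost in 4 of the 6 fits without 1 library and with the replicate block. Ghr, the growth hormone receptor, had 21 counts in both GMP libraries together, 0 in EoP and 2 in Eos, so it was at least 9.42-fold lower in EoP than in GMP, against a floor of 3 counts over both libraries. Its call was lost without either EoP library, in 2 of the 4 fits that tested it, and with the replicate block. Epha7, an ephrin receptor, had 19.0 and 15.5 CPM in GMP, 28.2 and 38.8 in EoP, and 7.53 and 2.10 in Eos, at −2.78 ± 0.49 in Eos against EoP (adjusted p = 0.0022). Il12rb2, the beta 2 chain of the interleukin-12 receptor, was the one receptor member that was higher in Eos, by 1.70 ± 0.44 against EoP (adjusted p = 0.013), a call lost without EoP replicate 1 or Eos replicate 2 and with limma on RPKM. Fgfr3 was not tested, at no more than 0.301 CPM in any library. Eng, the endothelial co-receptor endoglin, had 27.1 and 26.5 CPM in GMP, 4.01 and 3.60 in EoP, and 6.43 and 1.87 in Eos, and fell by 2.82 ± 0.51 in EoP against GMP (adjusted p = 0.0049).

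Further genes were lower than in GMP. Tifab, an inhibitor of innate immune signalling with no Eos promoter interval, had 211 and 199 CPM in GMP, 8.02 and 22.5 in EoP, and 51.3 and 21.9 in Eos, at −3.74 ± 0.50 in EoP against GMP (adjusted p = 0.0012). Apba1, an adaptor protein, had 24.7 and 36.8 CPM in GMP, 0.826 and 2.40 in EoP, and 0.803 and 1.29 in Eos, at −4.19 ± 0.52 (adjusted p = 7.5e-04), with another Eos promoter interval. Sh2b2, a signalling adaptor with no Eos promoter interval, had 19.6 and 24.9 CPM in GMP, 0.236 and 1.63 in EoP, and 4.32 and 3.27 in Eos, at −4.47 ± 0.64 (adjusted p = 0.0015). In each of these 3 genes both GMP libraries were above all others. Akr1e1, an aldo-keto reductase with no Eos promoter interval, had its lowest level in Eos, with 23.0 and 27.6 CPM in GMP, 15.1 and 10.4 in EoP, and 3.01 and 3.04 in Eos, and was lower in Eos against GMP by 3.06 ± 0.36 (adjusted p = 1.6e-04).

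Another group of genes was lower in EoP against GMP and higher in Eos against EoP, with an interval that GMP and EoP shared and the Eos list did not hold. Tshr, the thyrotropin receptor, had 38.2 and 27.1 CPM in GMP, 0.708 and 1.20 in EoP, and 31.5 and 14.4 in Eos. It had no Eos promoter interval, and its log2 fold change was −5.04 ± 0.51 in EoP against GMP (adjusted p = 2.2e-04) and 4.54 ± 0.50 in Eos against EoP (adjusted p = 1.9e-04). Mgst2, a microsomal glutathione transferase, and Pram1, an adaptor of myeloid signalling, were likewise lowest in EoP, with 26.1 and 21.2 CPM in GMP, 2.24 and 1.11 in EoP, and 23.0 and 11.2 in Eos for Mgst2, and 117 and 108 in GMP, 18.04 and 32.6 in EoP, and 174 and 108 in Eos for Pram1. They rose by 3.38 ± 0.49 and 2.47 ± 0.33 in Eos against EoP (adjusted p = 8.1e-04 and 5.4e-04). Neither had an Eos promoter interval, and an Eos interval of other annotation lay 377 bases from a Mgst2 member. Ugt8a, a ceramide galactosyltransferase, had 81.9 and 53.5 CPM in GMP, 2.48 and 3.60 in EoP, and 89.4 and 34.3 in Eos, and its member interval had 1 base between it and an Eos interval. Bcl6, a transcriptional repressor, and Irf5, an interferon regulatory factor, had 48.2 and 48.8 CPM and 37.3 and 44.4 CPM in Eos, against 2.95 and 3.34 and 1.89 and 4.29 in EoP. All these 6 genes were lower in EoP against GMP, though the Irf5 call was lost without either GMP library or EoP replicate 1, and the summed neutrophil list was also lowest in EoP. Whether cells of another type have a part in these values was not tested.

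**Figure D5:**
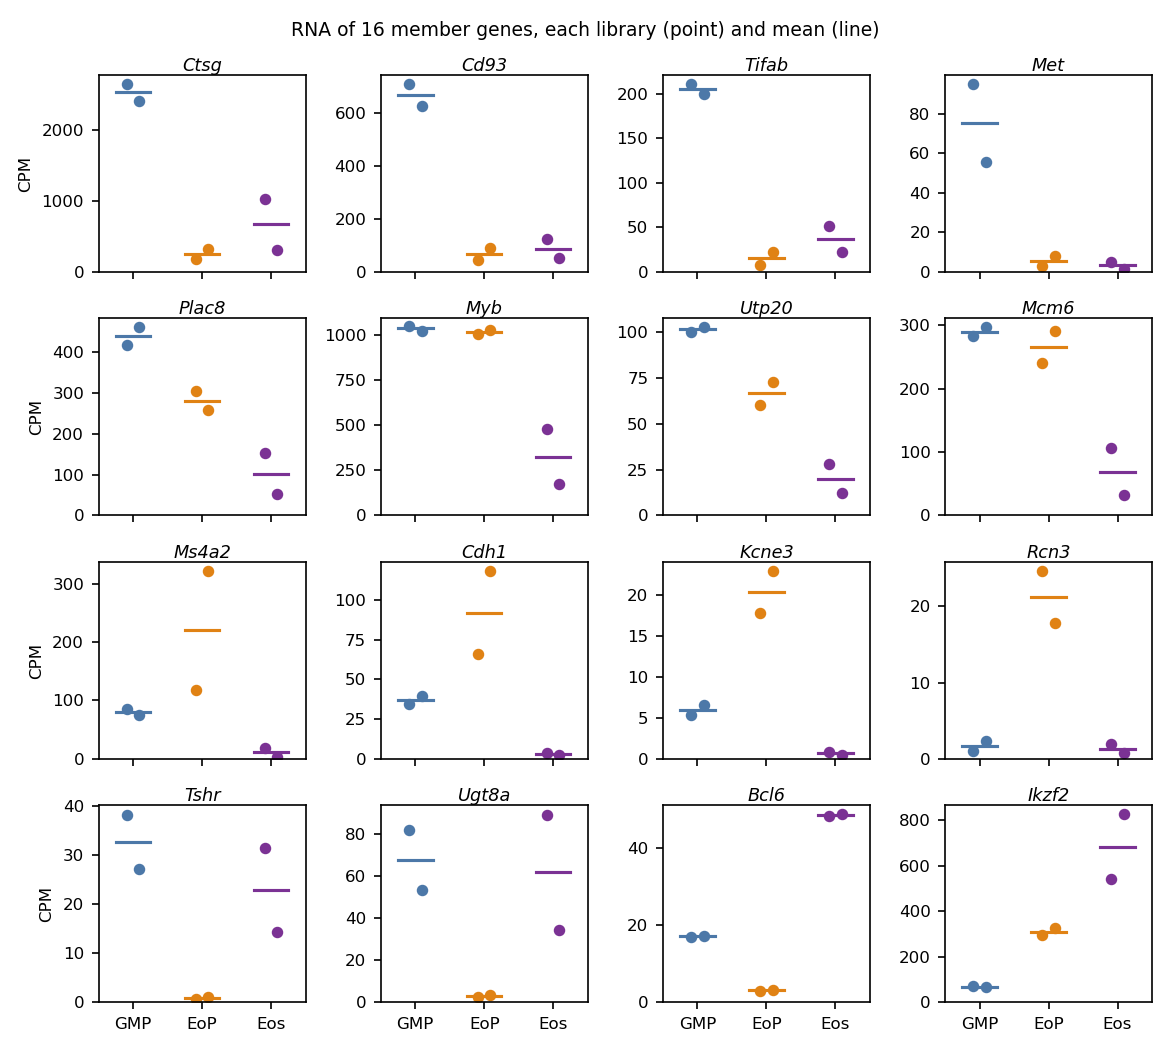
TMM-scaled CPM of 16 member genes in each RNA library (points) with the mean of the 2 libraries (line), for GMP, EoP and Eos, on linear axes from 0. The first row fell in EoP, the second fell in Eos against GMP with its Eos values lowest, the third was highest in EoP, and in the last row Tshr, Ugt8a and Bcl6 were lowest in EoP and Ikzf2 highest in Eos.

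Other members rose to their highest level in Eos. Ikzf2, which encodes the Ikaros family factor Helios, had 71.5 and 66.3 CPM in GMP, 295 and 324 in EoP, and 541 and 826 in Eos, and rose in each step, by 2.17 ± 0.27 in EoP against GMP (adjusted p = 6.9e-04) and 1.14 ± 0.26 in Eos against EoP (adjusted p = 0.0070), the second call being lost without EoP replicate 1 and with limma on RPKM. Camk1d, a calmodulin-dependent kinase, had 10.2 and 8.49 CPM in GMP, 46.9 and 61.9 in EoP, and 936 and 1466 in Eos. Tmcc1, a protein of the endoplasmic reticulum, had 19.97 and 18.5 in GMP, 38.3 and 37.0 in EoP, and 704 and 1317 in Eos, and Rarg, a retinoic acid receptor, had 2.90 and 2.38 in GMP, 2.12 and 1.97 in EoP, and 37.8 and 59.8 in Eos. These last 3 rose by 4.46 to 4.74 in Eos against EoP, and their members were upstream intervals of 178 to 563 bases with an Eos interval 116 to 304 bases away. Slc7a11, the cystine and glutamate exchanger, had 1.09 and 2.09 CPM in GMP, 61.0 and 59.6 in EoP, and 395 and 486 in Eos. Abtb2 had the same order of levels, at 0.121 and 0.596 CPM in GMP, 17.1 and 18 in EoP, and 63.5 and 95.6 in Eos. Cebpa, a transcription factor of granulocyte commitment and the other member among 26 eosinophil lineage factors with a GMP promoter interval, was higher in GMP, with 20.9 and 12.5 CPM in Eos, against 55.4 and 68.8 in GMP, a call lost without GMP replicate 2.

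Of the members, 33 lay on chromosome X and 4 on chromosome Y. The 4 on chromosome Y belonged to Kdm5d, Eif2s3y, Uty and Ddx3y, widely expressed genes of that chromosome, and the Eos list held 0 promoter intervals there, against 5 each in GMP and EoP. RNA of the 4 genes was present in Eos and EoP and near 0 in GMP. Ddx3y, an RNA helicase, had 47.4 and 34.1 CPM in Eos and 46.1 and 30.5 in EoP, and no count in either GMP library, so set against a floor of 3 counts over both GMP libraries Eos was at least 206-fold and EoP at least 185-fold higher. Kdm5d, a histone demethylase, had 609 counts in the 2 Eos libraries and 1 in the GMP libraries, a ratio of 493 with a 95% counting interval of 88.1 to 19492. The GMP RNA libraries and the GMP H3K4me3 library thus went opposite ways at these genes, with 11.4-fold enrichment at Kdm5d in GMP. The sex of the pooled mice is not given in the labels used here. Whether a difference in sex between the GMP RNA pools and the EoP and Eos pools has a part in the RNA comparisons with GMP, on any chromosome, was not tested. Xist, which is transcribed from an inactive X chromosome, had 5063 and 3232 CPM in GMP, 1505 and 3796 in EoP, and 1551 and 1889 in Eos. Without the members on chromosomes X and Y, 66 of the genes with no Eos promoter interval were lower and 8 higher in EoP against GMP, and 23 were lower and 22 higher in Eos against EoP.

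By cell type list, no gene of the erythroid and megakaryocyte, neutrophil, monocyte, B cell or germline lists was a member, although 20, 9, 21, 4 and 6 of them had a GMP promoter interval. The T and natural killer cell list had 3 members, Tcf7, Nkg7 and Lat, of 8 with a GMP promoter interval. Lat, the signalling adaptor of T cells and mast cells, was lower in Eos than in EoP by 2.93 ± 0.92 (adjusted p = 0.032), a call lost in 3 of the 6 fits without 1 library, at no more than 6.60 CPM. Of 39 integrin and adhesion genes with a GMP promoter interval the members were Cdh1 and Jam2, both with no Eos promoter interval. Of 46 genes of DNA and histone methylation and Polycomb the members were Cbx8, Pcgf2, Rbbp5 and Kdm5d. Cbx8, a Polycomb subunit, was higher in Eos than in EoP by 1.64 ± 0.40 (adjusted p = 0.010, lost without EoP replicate 2), and Pcgf2, another, was lower (adjusted p = 0.019, lost without EoP replicate 2 or Eos replicate 2). The neuronal list had 5 members of 27, all with another Eos promoter interval, and the Wnt, Notch, Hedgehog and TGF-beta list had 1 of 35, Jag1. The homeobox and developmental list had 2 of 27, Sox4 and Hmga2, and the stromal and endothelial list had 4 of 19, Kdr, Pecam1, Eng and Lama5. Over all genes with a GMP promoter interval, 7.53% were members.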

How the data were processed

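RNA was sequenced in 6 libraries and H3K4me3 in 3. The authors' RNA files give, per the file headers, an estimated count and an RPKM value for each RefSeq transcript. The deposited peak lists give, per the file headers, each summit's pileup signal, −log10 p and q, and fold enrichment. The tools named in the submitters' processing notes are STAR 2.4.0c and Bowtie 1.0.0, and the build mm10. The sources used here do not give the peak caller, any control library, the counter or the depth of the H3K4me3 libraries. Each list came from 1 library.

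Lines of 1 chromosome, start and end were joined to 1 interval, with the values of the summit of highest −log10 q. Where several EoP intervals overlapped a member, the one sharing the most bases was used. Coordinates are 1-based. Counts were rounded and summed by gene symbol to 23471 genes. TMM-scaled CPM are not shares of all counts. The test was edgeR 4.0.16 quasi-likelihood (R 4.3.3) after its default filter, which kept 14324 genes, with cell type as the only term over all 6 libraries and 3 residual degrees of freedom. Every adjusted p is that of edgeR after Benjamini-Hochberg adjustment over all genes tested, and genes under 0.05 were called. The fit was tested on simulated counts. Genes were matched to RefSeq by symbol or synonym. Floors and intervals cover counting error only.

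The members and the 22 gene lists were chosen with earlier results of these data known. Named genes are the members with the highest fold enrichment or length, those with the largest RNA changes at a mean of at least 20 CPM whose libraries did not overlap, and members of lists. Gene models (Gm, Rik, LOC, BC and AK names), micro RNAs and small nucleolar RNAs were passed over in this choice. Prss57, Tifab, Pram1 and Plac8's and Ccnd2's neighbouring intervals were chosen after their values were seen.

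Alternatives were DESeq2 1.42.0, limma 3.58.1 on log2(RPKM + 0.5), other scalings, filters and overlaps, and each library left out in turn.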

Additional observations from a re-analysis of the deposited data

How the results depend on the processing

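No named gene that was called changed direction under any alternative, among those chosen by the rules above. Prss57, Tifab and Pram1, chosen after their values were seen, were not part of this check. Whether their calls hold under the alternatives is not given here. Leaving out each library in turn moved the member genes lower and higher to between 107 and 253 and between 95 and 165 in Eos against EoP, 128 and 322 and 129 and 198 in Eos against GMP, and 31 and 175 and 30 and 133 in EoP against GMP. For genes with no Eos promoter interval the ranges were 15 to 38 lower and 11 to 27 higher, 33 to 88 and 8 to 14, and 17 to 81 and 8 to 16. Where this left 1 library of a cell type, it was assumed to vary like the others.

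With limma on log2(RPKM + 0.5), over 9838 genes, Eos against EoP gave 86 higher, EoP against GMP gave 36 lower and 124 higher, and genes with no Eos promoter interval gave 6 higher in Eos against EoP, 42 lower and 7 higher in Eos against GMP and 19 lower in EoP against GMP. With a pseudocount of 0.1 the numbers were 78 higher in Eos against EoP, 31 lower in EoP against GMP and, with no Eos promoter interval, 7 higher, 41 lower in Eos against GMP and 18 lower in EoP against GMP. These RPKM shifted the median log2 fold change of all genes by −0.47 in Eos against EoP, −0.20 in Eos against GMP and 0.27 in EoP against GMP. DESeq2 size factors shifted it by 0.11 in Eos against EoP, and upper quartile factors by −0.23 in Eos against GMP and −0.18 in EoP against GMP.

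At least 50 counts in 2 libraries gave 64 lower in EoP against GMP and, with no Eos promoter interval, 13 higher in Eos against EoP, 43 lower in Eos against GMP and 27 lower in EoP against GMP. Only the 2 groups compared gave 113 higher in EoP against GMP.

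Restricted to genes with no Eos promoter interval, the member counts were 25 lower and 22 higher, 83 and 12, and 69 and 12 in the 3 comparisons. The top-ranked intervals gave 111 higher in Eos against GMP and 40 higher in EoP against GMP. A −log10 q of at least 10 left 20 intervals, 4 of them with no Eos promoter interval, and 5 lower and 3 higher genes in Eos against EoP, 8 and 5 in Eos against GMP, and 2 and 0 in EoP against GMP. For genes with no Eos promoter interval it left 2 and 0, 3 and 0, and 1 and 0. Overlap of 50% of both intervals gave 2048 intervals, 92 with no Eos promoter interval, and 254 intervals had no Eos interval within 1000 bases. The remaining alternatives kept each count within 1.5 times.

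The labels do not say whether a replicate number marks a shared animal or day. The deviations of same-numbered libraries correlated at −0.12 for EoP and GMP, −0.098 for Eos and EoP and 0.029 for Eos and GMP, so the numbers were not taken to pair the samples. With the replicate block, genes with no Eos promoter interval gave 42 lower in EoP against GMP, and no other count moved by over 1.5 times. The crossed pairing, chosen after seeing the data, gave 112 lower and 71 higher member genes in EoP against GMP.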
